A study of Mus musculus with 18 samples.

Results

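The genes described here are 10 members of the TGF-beta and activin system, measured as RNA in mammary bud epithelium of mouse embryos: the ligands Tgfb1, Tgfb2 and Tgfb3, the activin subunits Inhba and Inhbb, the receptors Tgfbr1, Tgfbr2 and Tgfbr3, the activin-binding protein Fst and the TGF-beta-induced matrix gene Tgfbi. They were taken from a table of 24376 genes by matching symbols to the Ensembl identifiers, all 10 were found, and all 10 were among the 17269 genes that passed the filter on low counts. The stabilized embryos carried Krt14Cre and 1 Ctnnb1 flox3 allele beside a wild-type one; Cre removes exon 3 of the floxed allele in cells that express it from the Krt14 promoter, and the remaining β-catenin protein escapes destruction. Controls were littermates with the same floxed allele but without Cre, so effects of Cre itself and of stabilized β-catenin cannot be told apart. Each genotype had 4 libraries at E13.5 (the number is the day of gestation), where male and female embryos were used, and 5 at E16.5, from females, so stage and sex makeup cannot be told apart either. Each library pooled the epithelium of buds 1 to 3, freed by enzymes and dissected by hand, from 2 to 3 embryos of 1 litter and genotype, on a mixed C57Bl/6 and NMRI background.

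TGF-beta ligands are secreted bound to a latency peptide and to latent TGF-beta binding proteins, and are set free by integrins and proteases. Free ligand joins the type II receptor Tgfbr2 with the type I receptor Tgfbr1, which phosphorylates Smad2 and Smad3; Tgfbr3 (betaglycan) is a co-receptor that presents ligand, Tgfb2 above all, and also binds inhibin. Activins are dimers of the subunits encoded by Inhba and Inhbb, use their own receptors but the same Smads, and are neutralised by follistatin (Fst). In the mammary gland TGF-beta is known as a brake on duct growth, and activin B from Inhbb is known to act in the outgrowth of the ducts.

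Levels are given as CPM, edgeR's count scaled to the library total after TMM normalization, with the SD over the 4 libraries of a group at E13.5 and the 5 at E16.5. Effects are log2 fold changes with their SE, and p-values come from edgeR's quasi-likelihood test, adjusted by Benjamini-Hochberg over all 17269 genes; a gene was called past 0.05. Library totals ran from 26768810 to 36922108 counts. The epithelial markers were all present in every group, with a summed level of 5010 to 5787 CPM in E13.5 controls, 3597 to 4417 in E13.5 stabilized samples, 2931 to 3358 in E16.5 controls and 4036 to 7554 in E16.5 stabilized samples. Of these 10 markers, 1 was called higher and 4 lower in stabilized samples at E13.5 (9.58% and 5.29% of all genes). At E16.5, 4 were called higher and 4 lower (22.2% and 19.4% of all genes). Krt14, whose promoter drives Cre, was lower at E13.5 (-1.22 ± 0.247, edgeR adjusted p = 0.00169). It did not pass at E16.5 (-0.37 ± 0.218, edgeR adjusted p = 0.189). Ctnnb1 counts do not show the loss of exon 3 and so do not check the genotype labels: they did not pass at E13.5 (2683 ± 333 and 3260 ± 347 CPM, edgeR adjusted p = 0.307) and were higher in stabilized samples at E16.5 (1248 ± 111 and 2278 ± 564 CPM, edgeR adjusted p = 9.02e-05). A pair of libraries stood apart from their groups. E13.5 control replicate 3 had 4.18% of its counts in mitochondrial genes, against 2.18% to 2.50% in the other E13.5 controls. Its summed mesenchymal and endothelial markers, 674 and 15.05 CPM, were also the highest of that group, where the medians were 317.3 and 5.66. E16.5 stabilized replicate 1 had 20880 CPM of suprabasal epidermal markers, in a group with a median of 1519. Without both libraries, the counts of called genes among the 10 were the same in every comparison but the E16.5 genotype effect, where Tgfbr2 joined them.

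The first question was which of these genes differ between stabilized and control epithelium at each stage. At E13.5, 5 of the 10 genes were higher in stabilized samples (Tgfb2, Tgfb3, Inhbb, Fst and Tgfbi) and none was lower, while over all genes tested 14.9% passed, 9.58% higher and 5.29% lower. The median log2 fold change of the 10 was 1.36, against 0.0084 over all genes. At E16.5, 5 were higher (Tgfb1, Tgfb2, Tgfb3, Inhba and Tgfbi) and 2 lower (Tgfbr3 and Inhbb), where 41.7% of all genes passed, 22.2% higher and 19.4% lower. Their median was 0.31, against 0.097 over all genes. Tgfb2, Tgfb3 and Tgfbi were thus higher at both stages, Inhbb passed in opposite directions, and neither signalling receptor, Tgfbr1 or Tgfbr2, passed at either stage. The 2 genotype groups did not overlap for 5 genes at E13.5 (16.53% of all genes) and for 9 at E16.5 (36.3% of all genes). In bulk samples, fewer cells of a type and less RNA per cell cannot be told apart.

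**Figure D1:**
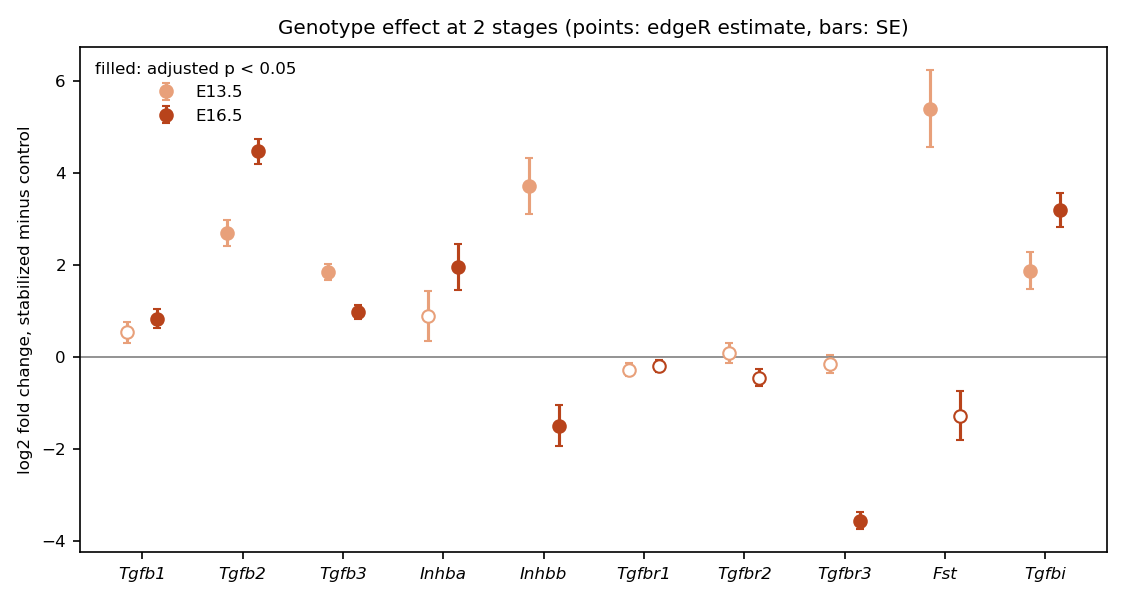
Genotype effect (stabilized minus control, log2 fold change, vertical axis) for each of the 10 genes at E13.5 (light) and E16.5 (dark); points are edgeR estimates, bars their SE, and filled points passed an adjusted p of 0.05. Tgfb2 lies at 2.68 and 4.46, Inhbb at 3.71 and -1.50, and Tgfbr3 at -0.16 and -3.57.

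Of the TGF-beta ligands, Tgfb2 (ENSMUSG00000039239, mm10 chr1:186622792-186705989, minus strand) moved most. In E13.5 controls Tgfb2 had 15.6, 14.6, 14.01 and 9.71 CPM in replicates 1 to 4, and in E13.5 stabilized samples 75.4, 49.1, 112 and 111 CPM. At E16.5 the 5 controls held 17.2, 11.2, 12.6, 9.62 and 6.57 CPM of Tgfb2, and the 5 stabilized samples 175, 318, 263, 259 and 246 CPM. The genotypes did not overlap at either stage, and the lowest E16.5 stabilized library lay above every E13.5 stabilized one. The E13.5 means of 13.47 ± 2.59 and 86.6 ± 30.1 CPM gave a 6.43-fold rise (log2 fold change 2.68 ± 0.290, edgeR adjusted p = 2.99e-06). The E16.5 means of 11.4 ± 3.94 and 251.9 ± 51.0 CPM gave a 22.0-fold rise (4.46 ± 0.281, edgeR adjusted p = 7.18e-10). The effect was larger at E16.5, with a log2 difference of 1.78 ± 0.370 (edgeR adjusted p = 0.00116).

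Tgfb3 (ENSMUSG00000021253, mm10 chr12:86056745-86079041, minus strand), the ligand best known from palate closure, also rose at both stages. Its levels were 8.61, 11.5, 11.1 and 10.6 CPM in the E13.5 controls and 28.0, 29.5, 51.6 and 40.0 CPM in the E13.5 stabilized samples. At E16.5 the controls had 29.6, 40.6, 35.2, 32.5 and 32.1 CPM of Tgfb3, and the stabilized samples 64.7, 69.4, 72.6, 59.5 and 66.4 CPM. The E13.5 stabilized samples thus lay in the range of E16.5 controls or above it, except for replicates 1 and 2, which fell just below its lowest value. The log2 fold change of Tgfb3 was 1.84 ± 0.177 at E13.5 (edgeR adjusted p = 4.53e-07) and 0.97 ± 0.154 at E16.5 (edgeR adjusted p = 4.05e-05). Here the effect was smaller at E16.5, by 0.87 on the log2 scale (difference -0.87 ± 0.230, edgeR adjusted p = 0.00666), opposite to Tgfb2. Tgfb3 overlaps Ttll5 on the other strand without sharing an exon base, and Ttll5 did not pass at either stage (log2 fold changes -0.20 and 0.06, edgeR adjusted p = 0.598 and 0.805).

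Tgfb1 (ENSMUSG00000002603, mm10 chr7:25687002-25705077, plus strand), the founding member of the family, differed less. E13.5 controls ranged from 12.6 to 25.9 CPM and E13.5 stabilized samples from 19.0 to 44.5 CPM, and the difference did not pass (0.53 ± 0.236, edgeR adjusted p = 0.159). At E16.5 the 5 controls lay between 32.1 and 41.7 CPM and the 5 stabilized samples between 47.4 and 77.7 CPM, with a log2 fold change of 0.82 ± 0.211 (edgeR adjusted p = 0.00372). This call was lost when the gene-wise factors implied by the deposited normalized table served as offsets (0.65, edgeR adjusted p = 0.113). The effect of genotype on Tgfb1 did not pass as different between stages (0.30 ± 0.315, edgeR adjusted p = 0.519).

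Per kilobase of all annotated exons of a gene, the scale on which genes can be set side by side, the mix of the 3 TGF-beta ligand transcripts shifted. Tgfb2 made up 25.1% ± 5.63 (SD) of the 3 in E13.5 controls and 46.8% ± 5.47 in E13.5 stabilized samples. At E16.5 its share was 10.4% ± 3.83 in controls and 57.1% ± 5.44 in stabilized samples. Tgfb3 had 52.4% ± 4.12 in E16.5 controls and 26.2% ± 3.09 in E16.5 stabilized samples. The share of Tgfb1 was 41.7% ± 9.20 and 17.9% ± 2.46 at E13.5, and 37.2% ± 4.60 and 16.7% ± 3.17 at E16.5, in controls and stabilized samples in turn. A share can fall while the level does not, as it did for Tgfb1, whose CPM were higher at E16.5. The shares depend on the length used. Per kilobase of the longest transcript, which is much shorter than the exon union for Tgfb1, the share of Tgfb1 was 56.6% ± 9.43 and 28.4% ± 3.49 at E13.5 and 53.1% ± 4.95 and 26.4% ± 4.51 at E16.5. Tgfb1 then led Tgfb3 in E16.5 controls (38.3% ± 4.00), where Tgfb3 led by the exon union. Tgfb2 still had the higher share in stabilized samples, with 20.0% ± 5.28 and 43.0% ± 5.35 at E13.5 and 8.61% ± 3.25 and 52.4% ± 5.82 at E16.5. These shares are given as a description, with no test.

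The subunits Inhba and Inhbb can each pair with themselves, to activin A and activin B. Inhbb (ENSMUSG00000037035, mm10 chr1:119415465-119422248, minus strand) had 0.592, 0.119, 0.0334 and 2.14 CPM in the E13.5 controls, which are 20, 4, 1 and 66 counts. The E13.5 stabilized samples had 12.1, 5.74, 8.84 and 11.0 CPM of Inhbb. At E16.5 Inhbb reached 335, 280.3, 278, 309 and 273 CPM in the controls and 78.3, 133, 97.3, 89.8 and 123 CPM in the stabilized samples. Stabilized samples thus held more Inhbb than controls at E13.5 and less at E16.5, with no overlap either time. The log2 fold change of Inhbb was 3.71 ± 0.600 at E13.5 (edgeR adjusted p = 0.000416) and -1.50 ± 0.442 at E16.5 (edgeR adjusted p = 0.0124). The difference between these effects was -5.21 ± 0.745 (edgeR adjusted p = 6.31e-05). The E13.5 controls are near the floor of detection, and the size of the early effect rests on replicate 4: without it the log2 fold change was 5.19 and the difference between stages -6.69, and limma-voom gave 4.88 and -6.40.

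Inhba (ENSMUSG00000041324, mm10 chr13:16011851-16031621, plus strand) stayed low in all groups. The E13.5 controls held 1.63, 1.903, 6.32 and 6.18 CPM and the E13.5 stabilized samples 9.37, 2.59, 7.76 and 9.78 CPM, which overlapped and did not pass (0.88 ± 0.538, edgeR adjusted p = 0.333). At E16.5 Inhba lay at 2.42, 3.23, 1.95, 1.11 and 0.785 CPM in controls and at 3.83, 7.23, 6.23, 11.9 and 7.67 CPM in stabilized samples. The groups did not overlap, and Inhba rose with a log2 fold change of 1.95 ± 0.497 (edgeR adjusted p = 0.00349). At E16.5 the activin subunits therefore moved in opposite directions. In CPM per kilobase, Inhbb nevertheless stayed above Inhba in E16.5 stabilized samples, at 24.5 ± 5.44 against 1.15 ± 0.459; in E16.5 controls the values were 69.4 ± 6.21 and 0.297 ± 0.155.

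Follistatin, which binds activins almost irreversibly, followed the pattern of Inhbb. Fst (ENSMUSG00000021765, mm10 chr13:114452290-114458951, minus strand) had 0 counts in E13.5 control replicates 1, 2 and 3 and 19 counts (0.615 CPM) in replicate 4. The E13.5 stabilized samples had 7.39, 1.43, 8.11 and 8.90 CPM of Fst. At E16.5 the controls held 70.2, 132, 90.6, 97.8 and 91.2 CPM and the stabilized samples 47.5, 21.3, 34.0, 53.2 and 42.1 CPM. Every E13.5 stabilized library thus had more Fst than every control, and at E16.5 every one had less. At E13.5 the log2 fold change was 5.39 ± 0.838, a 42.0-fold rise over all controls (edgeR adjusted p = 0.000282). Its size depends on control replicate 4. The stabilized mean of 6.46 CPM was 209.4 times a floor of 3 counts over the 3 controls without a count. That ratio leaves out replicate 4 and is no lower bound for the whole group. At E16.5 the effect on Fst missed the threshold with -1.28 ± 0.524 (edgeR adjusted p = 0.0616). It passed under limma-voom (-1.33, adjusted p = 0.000128) and in an edgeR fit of these 2 groups alone (-1.27, adjusted p = 0.00105). The effects at the 2 stages differed by -6.67 ± 0.991 (edgeR adjusted p = 8.78e-05), by -8.42 under limma-voom, and by -11.9 without E13.5 control replicate 4, a value set by the prior count where all controls are at 0.

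**Figure D2:**
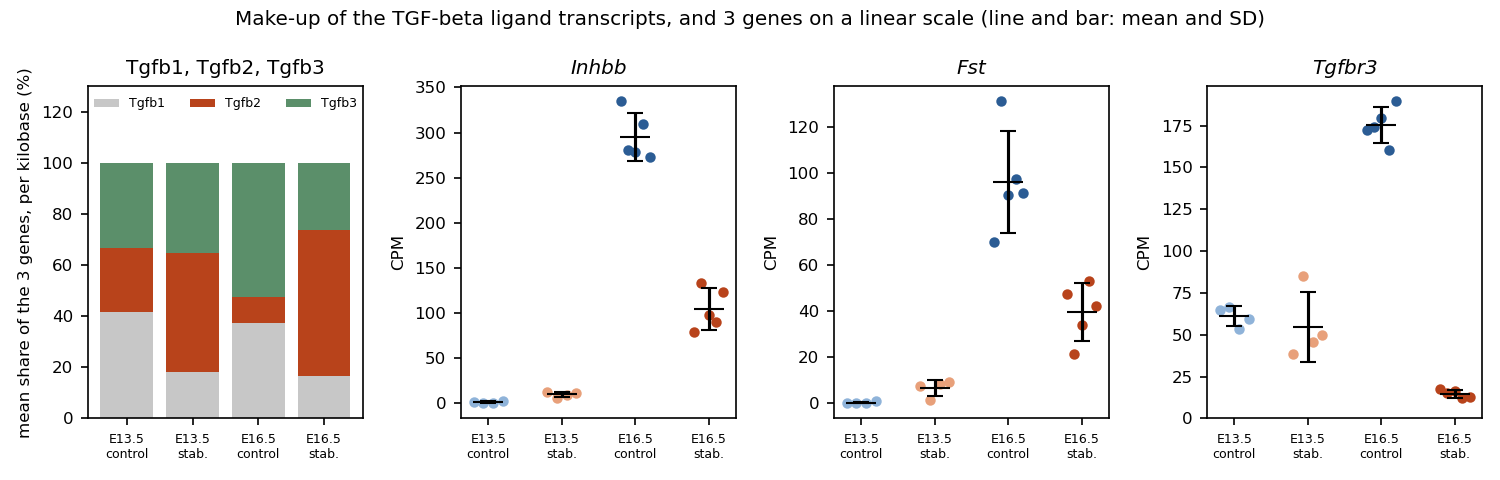
Left, mean share of Tgfb1, Tgfb2 and Tgfb3 in their summed level per kilobase of exon union (percent) in each group; right, CPM of Inhbb, Fst and Tgfbr3 on linear axes, with a point for each library and the group mean and SD (stab., stabilized). Tgfb2 takes 57.1% of the ligand transcripts in E16.5 stabilized samples, and the 3 genes at right are highest in E16.5 controls.

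Promoter sequences are shown for the ligand with the largest rise and for both activin subunits, which moved in opposite directions at E16.5. They are the 250 bases before the annotated start, from RefSeq (GRCm38.p6, the build of the files), written 5′ to 3′ on the strand of the gene; capitals mark matches to the motifs named next, including the added CTTTGTA and CTTTGTT. The RefSeq table held 7 of the 10 genes, all but Tgfb3, Tgfbr3 and Fst. The searched motifs were the TCF/LEF core (CTTTGAA or CTTTGAT), through which β-catenin reaches DNA, the Smad box (GTCTAGA or TCTAGAC), the shorter Smad motif (AGCCAGA or CAGACAG) and the Ap-1 site (TGAGTCA or TGACTCA), each on both strands. CTTTGTA and CTTTGTT were added to the TCF/LEF core after the sequences were seen.
Tgfb2, chr1:186705990-186706239, minus strand: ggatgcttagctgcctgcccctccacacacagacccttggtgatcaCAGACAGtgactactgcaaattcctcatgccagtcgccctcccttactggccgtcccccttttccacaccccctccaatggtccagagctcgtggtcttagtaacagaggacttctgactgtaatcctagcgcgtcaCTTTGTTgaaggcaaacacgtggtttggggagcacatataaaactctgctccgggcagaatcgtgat
Inhba, chr13:16011601-16011850, plus strand: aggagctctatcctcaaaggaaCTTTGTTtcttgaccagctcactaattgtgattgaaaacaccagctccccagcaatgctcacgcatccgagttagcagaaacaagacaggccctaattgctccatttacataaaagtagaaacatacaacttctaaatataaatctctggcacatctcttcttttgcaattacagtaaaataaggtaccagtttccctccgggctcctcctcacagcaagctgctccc
Inhbb, chr1:119422249-119422498, minus strand: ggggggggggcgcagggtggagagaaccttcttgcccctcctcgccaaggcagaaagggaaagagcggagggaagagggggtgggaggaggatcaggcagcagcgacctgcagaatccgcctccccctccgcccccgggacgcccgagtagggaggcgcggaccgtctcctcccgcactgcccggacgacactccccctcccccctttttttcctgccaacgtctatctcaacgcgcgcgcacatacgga

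None of the 7 genes held CTTTGAA or CTTTGAT in this window, which 7.48% of 32851 promoter windows of the same length did. With CTTTGTA and CTTTGTT added to the core, 3 of the 7 genes held a match, and 14.8% of all windows did. The 2 shares cannot be compared: the strings were added after these sequences were seen, and Tgfbr1 has a second window. The 3 genes were Tgfb2 (CTTTGTT, 67 bases before the start), Inhba (CTTTGTT, 228 bases before it) and Tgfbr1 (TACAAAG, the reverse complement of CTTTGTA, 30 bases before it). The shorter Smad motif occurred in Tgfb2 (CAGACAG, 204 bases before the start) and in the second annotated window of Tgfbr1 (203 bases before it), and in 12.1% of all windows. The Smad box (1.83% of all windows) and the Ap-1 site (4.46%) occurred in none of the 7. The Inhbb window held no match, and its 68.0% G and C compares with 53.6% for Tgfb2 and 43.2% for Inhba. A match here is a string of letters and not evidence of binding.

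Among the receptors, Tgfbr3 was the only one called for genotype in the edgeR fit of all groups, and at E16.5 only. Tgfbr3 (ENSMUSG00000029287, mm10 chr5:107106570-107289629, minus strand) had 64.9, 66.4, 53.7 and 59.4 CPM in the E13.5 controls and 38.6, 85.1, 45.4 and 49.8 CPM in the E13.5 stabilized samples. At E16.5 the controls had 172, 174, 179, 161 and 189.8 CPM and the stabilized samples 17.7, 15.0, 16.4, 12.1 and 12.5 CPM. The groups overlapped at E13.5 through stabilized replicate 2 alone, while at E16.5 the highest stabilized library lay far under the lowest control. At E13.5 the effect on Tgfbr3 did not pass (-0.16 ± 0.186, edgeR adjusted p = 0.68), but it did without stabilized replicate 2 (-0.45, edgeR adjusted p = 0.0368). At E16.5 Tgfbr3 was 11.9-fold lower in stabilized samples (-3.57 ± 0.184, edgeR adjusted p = 1.86e-11). Over the 9 alternatives other than leaving out 1 library, this log2 fold change ran from -3.65 to -3.00. The difference between the stages was -3.41 ± 0.257 (edgeR adjusted p = 1.49e-08), and -2.48 with the factors of the deposited normalized table as offsets (adjusted p = 0.000419).

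Tgfbr1 (ENSMUSG00000007613, mm10 chr4:47353222-47414931, plus strand), the type I receptor kinase, ranged from 158 to 189 CPM in E13.5 controls and from 111 to 169.6 CPM in E13.5 stabilized samples. At E16.5 its ranges were 97.5 to 124 CPM and 76.1 to 115 CPM, and neither effect passed (-0.28 ± 0.144 and -0.21 ± 0.128, edgeR adjusted p = 0.226 and 0.212). Tgfbr2 (ENSMUSG00000032440, mm10 chr9:116084293-116175360, minus strand), the type II receptor that binds ligand first, ranged from 11.8 to 19.7 CPM in E13.5 controls and from 11.3 to 24.5 CPM in E13.5 stabilized samples (0.08 ± 0.213, edgeR adjusted p = 0.884). At E16.5 Tgfbr2 lay between 30.02 and 37.9 CPM in controls and between 21.5 and 27.2 CPM in stabilized samples, without overlap. Its log2 fold change there was -0.46 ± 0.190 and missed the threshold (edgeR adjusted p = 0.0606); it passed under limma-voom (adjusted p = 0.0257), in an edgeR fit of these 2 groups alone (adjusted p = 0.00665) and in edgeR without the 2 libraries that stood apart (adjusted p = 0.0498).

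Tgfbi (ENSMUSG00000035493, mm10 chr13:56609523-56639562, plus strand) encodes a secreted matrix protein first found as a TGF-beta-induced transcript. It had 0.828, 1.16, 4.01 and 2.30 CPM in the E13.5 controls and 9.27, 4.08, 7.03 and 9.81 CPM in the E13.5 stabilized samples. At E16.5 the controls had 9.84, 9.80, 7.10, 7.57 and 4.93 CPM and the stabilized samples 99.5, 56.2, 80.0, 75.2 and 48.1 CPM of Tgfbi. The E13.5 groups were adjacent, with control replicate 3 just under stabilized replicate 2, and the E16.5 groups lay far apart. The log2 fold change was 1.87 ± 0.405 at E13.5 (edgeR adjusted p = 0.00339), a call lost in the fit of these 2 groups alone (1.85, edgeR adjusted p = 0.052), and 3.19 ± 0.367 at E16.5, a 9.14-fold rise (edgeR adjusted p = 1.47e-06). The effects did not pass as different between stages (1.32 ± 0.524, edgeR adjusted p = 0.0622); they did under DESeq2 (1.38, adjusted p = 0.0267) and in edgeR without E13.5 control replicate 1 (1.59, adjusted p = 0.018), E13.5 control replicate 2 (1.52, adjusted p = 0.0381) or E16.5 stabilized replicate 5 (1.47, adjusted p = 0.0473).

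**Figure D3:**
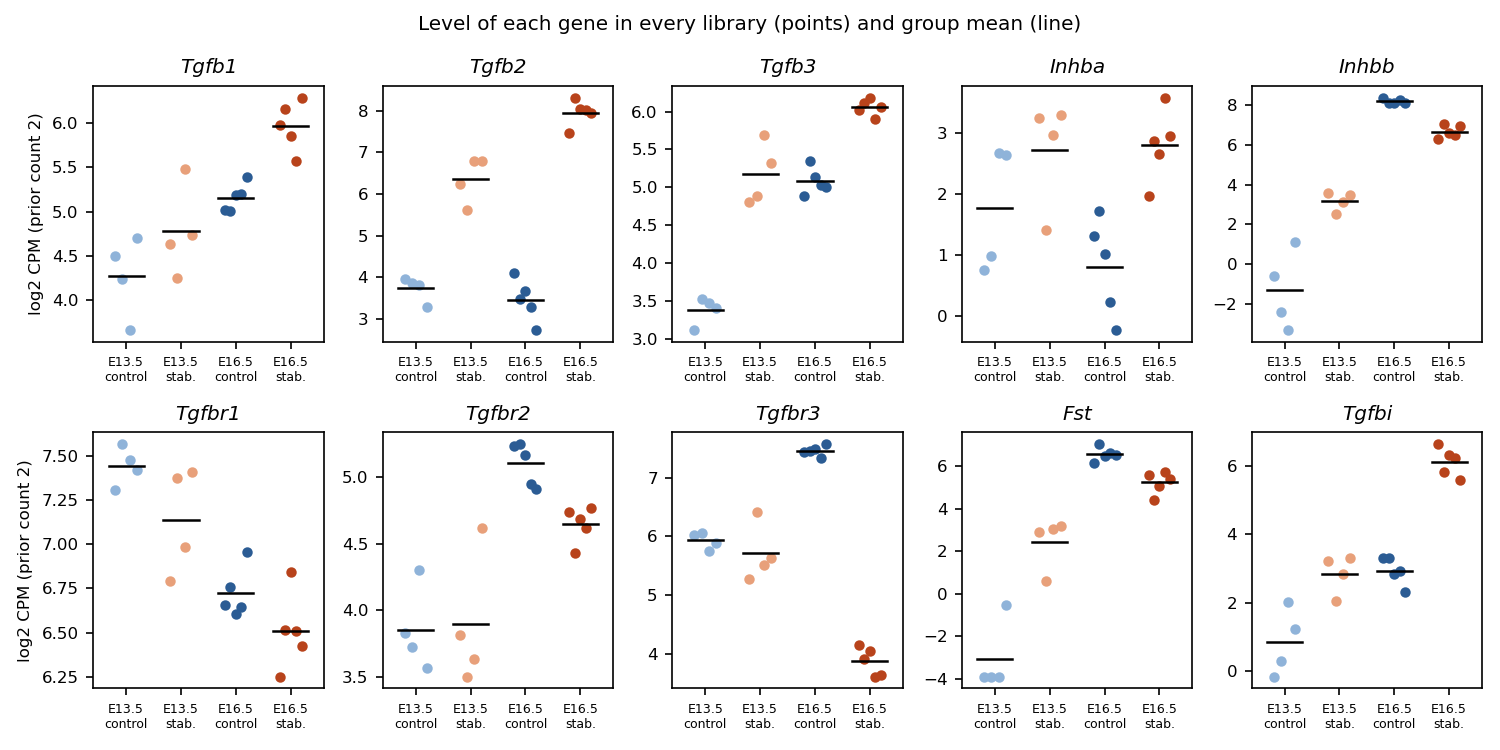
Level of each of the 10 genes in every library (points) and group mean (line), as log2 CPM with a prior count of 2, for controls (blue) and stabilized samples (orange; stab.) at E13.5 (light) and E16.5 (dark); each panel has its own vertical range. The genotypes separate at both stages for Tgfb2, Tgfb3, Inhbb, Fst and Tgfbi, and at E16.5 alone for Tgfb1, Tgfbr2, Tgfbr3 and Inhba.

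Over the 5 genes whose genotype effects differed between stages (Tgfb2 with the larger effect at E16.5, and Tgfb3, Tgfbr3, Inhbb and Fst with the more negative one), 1 interaction was positive and 4 negative, where 32.2% of all genes passed, 15.6% with a positive and 16.6% with a negative one. The other 5 genes did not pass this test, among them Inhba (1.07 ± 0.720, edgeR adjusted p = 0.28) and Tgfbr2 (-0.54 ± 0.285, edgeR adjusted p = 0.162).

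Markers of other cell types moved with genotype. Over all genes tested, 22.2% were higher and 19.4% lower at E16.5, and 9.58% were higher and 5.29% lower at E13.5. At E16.5 the 10 hair shaft and inner root sheath markers summed to 8.81 to 18.5 CPM in controls and 3416 to 7889 CPM in stabilized samples, all 10 higher, with Krt36 at 0 in every control. The 8 suprabasal epidermal markers summed to 43.8 to 202 CPM and 1217 to 20880 CPM, all 8 higher. Of the 13 mesenchymal markers 2 were higher and 2 lower at E16.5; their sum was 259 to 578 CPM in controls and 595 to 898 CPM in stabilized samples, and without Dcn it was 258 to 575 and 357 to 515 CPM. Immune markers summed to 12.4 to 19.4 and 6.40 to 9.88 CPM, and endothelial markers to 14.5 to 28.0 and 11.3 to 17.1 CPM, with none of either list called. Muscle markers summed to 5.63 to 19.67 and 7.28 to 14.35 CPM, and 1 of the 4 tested was lower (Myh3, edgeR adjusted p = 0.009). At E13.5 the hair markers summed to 9.06 to 14.3 and 23.5 to 55.1 CPM (2 of 10 higher, with Krt31 and Krt71 at 0 in every control and Krt34 and Krt36 at 0 in every stabilized sample), and the suprabasal markers to 14.8 to 32.04 and 26.9 to 77.5 CPM (2 of 8 higher). The mesenchymal sums overlapped at E13.5 (189.5 to 674 and 211 to 376 CPM), and the sums of the endothelial, immune and muscle lists stayed at or under 16.6 CPM there. Of these lists, the mesenchymal marker Thy1 was lower and the muscle marker Tnnt1 higher at E13.5 (edgeR adjusted p = 0.0185 and 0.0491). The part of these cell types in the levels of the 10 genes was not tested.

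The second question was how the genes change from E13.5 to E16.5 in each genotype. In controls 7 of the 10 genes rose and 1 fell, where 47.5% of all genes passed, 24.9% up and 22.6% down. The stages did not overlap in controls for 8 of the 10 (39.7% of all genes). The largest rises were those of Fst (9.29 ± 0.895 on the log2 scale, edgeR adjusted p = 4.44e-07) and Inhbb (8.68 ± 0.696, edgeR adjusted p = 5.88e-08), both from levels near 0. These sizes rest on few counts: under limma-voom they were 11.3 and 9.90, and without E13.5 control replicate 4 that of Inhbb was 10.2, while that of Fst, 14.5, is then set by the prior count, since no count is left in the controls. Tgfbi (1.93 ± 0.392, edgeR adjusted p = 0.000568), Tgfb3 (1.70 ± 0.171, edgeR adjusted p = 1.3e-07), Tgfbr3 (1.52 ± 0.183, edgeR adjusted p = 1.34e-06), Tgfbr2 (1.23 ± 0.207, edgeR adjusted p = 6.94e-05) and Tgfb1 (0.84 ± 0.227, edgeR adjusted p = 0.00485) rose as well. Tgfbr1 fell by 0.71 ± 0.136 in log2 units (edgeR adjusted p = 0.000232). Tgfb2 (-0.24 ± 0.262, edgeR adjusted p = 0.486) and Inhba (-1.07 ± 0.510, edgeR adjusted p = 0.091) did not pass, although Inhba did without E13.5 control replicate 1 (-1.33, edgeR adjusted p = 0.0454) or E16.5 control replicate 2 (-1.37, edgeR adjusted p = 0.0482).

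In stabilized samples 7 genes rose and 2 fell between the stages, where 28.0% of all genes passed, 16.52% up and 11.5% down. The stages did not overlap for 7 of the 10 (25.9% of all genes). Tgfb2, which did not pass in controls, rose by 1.54 ± 0.267 (edgeR adjusted p = 0.00028), and Tgfbi rose by 3.25 ± 0.402 (edgeR adjusted p = 9.84e-06). Inhbb (3.47 ± 0.528, edgeR adjusted p = 0.00014) and Fst (2.62 ± 0.604, edgeR adjusted p = 0.004) rose from higher E13.5 levels to lower E16.5 levels than in controls. Tgfbr3, which rose in controls, fell from 54.7 ± 20.8 to 14.7 ± 2.42 CPM (-1.89 ± 0.180, edgeR adjusted p = 2.23e-07; -1.10 with the factors of the deposited normalized table as offsets, adjusted p = 0.0141). Tgfb1 (1.14 ± 0.228, edgeR adjusted p = 0.000863), Tgfb3 (0.84 ± 0.164, edgeR adjusted p = 0.000721) and Tgfbr2 (0.69 ± 0.204, edgeR adjusted p = 0.0156) rose, and Tgfbr1 fell by 0.64 (edgeR adjusted p = 0.00137). The Tgfb1 call was lost with the offsets (0.79, edgeR adjusted p = 0.0991), and that of Tgfbr2 without E13.5 stabilized replicate 2 (0.56, edgeR adjusted p = 0.0632) or replicate 3 (0.60, edgeR adjusted p = 0.0584). Inhba did not pass (edgeR adjusted p = 1.0). The stage comparisons share their libraries with the genotype comparisons.

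Ordered by level per kilobase of exon, the genes ranked differently in each group. In E13.5 controls the receptors led, Tgfbr1 with 26.6 ± 2.00 CPM per kilobase and Tgfbr3 with 9.34 ± 0.887, each apart from its neighbours. Tgfb1 (3.96 ± 1.13), Tgfb3, Tgfb2 and Tgfbr2 (1.80 ± 0.424) followed with overlapping neighbours, and Inhba, Tgfbi, Inhbb and Fst lay under 1 CPM per kilobase in the mean. In E13.5 stabilized samples Tgfbr1 (21.9 ± 4.46) overlapped Tgfb2 (14.95 ± 5.20), which overlapped Tgfb3 (11.0 ± 3.23). In E16.5 controls Inhbb led with 69.4 ± 6.21, apart from Tgfbr3 (26.79 ± 1.62), which overlapped Fst (21.0 ± 4.85), as Fst overlapped Tgfbr1 (16.2 ± 1.64); Tgfb2 (1.98 ± 0.680) and Inhba (0.297 ± 0.155) came last. In E16.5 stabilized samples Tgfb2 came first, with 43.5 ± 8.81, its range overlapping that of Inhbb (24.5 ± 5.44), and Tgfbr3 (2.25 ± 0.370) and Inhba (1.15 ± 0.459) came last. With the longest transcript as the length, the genes in first and last place of each group stayed there, but places between them changed. The level of Tgfb1 became 24.6 CPM per kilobase in E16.5 stabilized samples in place of 12.6, which moved it from rank 6 to rank 2, and in E16.5 controls Tgfb1 (13.9) came before Tgfb3 (10.1).

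The rest of the pathway was read from 6 lists of other genes, 67 in all besides the 10, of which 59 were tested. At E13.5, 14 rose, 4 fell and 41 did not pass, where 9.58% of all genes rose and 5.29% fell. At E16.5, 21 rose, 10 fell and 28 did not pass, where 22.2% of all genes rose and 19.4% fell. The median log2 fold changes were 0.12 and 0.19, against 0.0084 and 0.097 over all genes. Of the 4 other ligands tested, Inha, the inhibin alpha subunit, rose at E16.5 from 2.86 ± 0.903 to 5.33 ± 1.34 CPM (edgeR adjusted p = 0.0242), and none passed at E13.5. None of the 4 other receptors tested passed at either stage. Of 9 Smads and nuclear partners, the co-repressor gene Skil rose at both stages, from 125 ± 23.3 to 209.7 ± 59.9 CPM and from 149 ± 7.31 to 234 ± 37.4 CPM (edgeR adjusted p = 0.0063 and 0.00252), and Tgif1, a homeodomain co-repressor gene, rose at E13.5 (edgeR adjusted p = 0.0451). Tgif2, another repressor gene, fell at E16.5 from 99.5 ± 13.4 to 43.1 ± 6.77 CPM (edgeR adjusted p = 2.23e-07), and Smad2 rose by 0.32 ± 0.122 (edgeR adjusted p = 0.0383).

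Of the 14 genes of ligand storage and activation tested, 6 rose and 2 fell at E13.5 (9.58% and 5.29% of all genes), and 5 rose and 4 fell at E16.5 (22.2% and 19.4% of all genes). Ltbp2, a latent TGF-beta binding protein, went from 0.26 ± 0.427 to 19.3 ± 14.6 CPM at E13.5 and from 3.88 ± 0.898 to 114 ± 34.8 CPM at E16.5 (edgeR adjusted p = 0.00039 and 8.31e-05). Thbs1, whose product thrombospondin can activate latent TGF-beta, rose at E13.5, with means of 10.9 ± 10.5 CPM in controls and 371 ± 168 CPM in stabilized samples (edgeR adjusted p = 1.42e-05). At E16.5 the effect on Thbs1 did not pass (223.6 ± 31.27 and 269.1 ± 78.52 CPM, edgeR adjusted p = 0.661). Its effects differed between stages by -4.83 ± 0.692 (edgeR adjusted p = 6.37e-05). Itgb8, an integrin subunit that activates latent TGF-beta, rose at E13.5 too, with means of 9.86 ± 3.09 and 42.7 ± 10.3 CPM (edgeR adjusted p = 1.26e-06). At E16.5 Itgb8 was lower in stabilized samples (-0.63 ± 0.189, edgeR adjusted p = 0.0108), and its effects differed between stages by -2.75 ± 0.289 (edgeR adjusted p = 7.69e-07). Ltbp3 and Ltbp4 fell at E13.5, by 0.62 and 1.01 in log2 units (edgeR adjusted p = 0.0159 and 0.00266). Ltbp4 rose at E16.5 (0.74 ± 0.193, edgeR adjusted p = 0.00407; difference between stages 1.76 ± 0.290, adjusted p = 0.000111). At E16.5 Ltbp1 rose from 75.4 ± 4.72 to 198 ± 25.8 CPM and Itgb6, the other activating integrin subunit, from 8.08 ± 1.02 to 22.6 ± 4.46 CPM (edgeR adjusted p = 7.65e-08 and 3e-05). Both had also risen at E13.5, by 0.4355 ± 0.1445 and 1.217 ± 0.2562 in log2 units (edgeR adjusted p = 0.0482 and 0.00232). The effects differed between stages for Ltbp1 (0.9547 ± 0.1942, edgeR adjusted p = 0.000808). For Itgb6 they did not pass as different (edgeR adjusted p = 0.596). The microfibril gene Fbn2 fell by 2.45 ± 0.350 at E16.5, the proprotein convertase gene Furin by 0.74 ± 0.153 and Itgb1 by 0.54 ± 0.138 (edgeR adjusted p = 2.68e-05, 0.000618 and 0.00374). Furin had risen at E13.5 (0.53 ± 0.171, edgeR adjusted p = 0.0413; difference between stages -1.27 ± 0.229, adjusted p = 0.000271).

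Of the 10 tested inhibitors and feedback genes, a list that holds Fst too, 3 rose and none fell at E13.5 (9.58% and 5.29% of all genes), and 5 rose and 2 fell at E16.5 (22.2% and 19.4% of all genes). Bambi, a pseudoreceptor that blocks the type I receptors and a known Wnt target, rose from 7.98 ± 1.16 to 105 ± 48.1 CPM at E13.5 and from 41.8 ± 7.04 to 254 ± 27.7 CPM at E16.5 (edgeR adjusted p = 1.3e-07 and 2.34e-07). Pmepa1, a feedback inhibitor induced by TGF-beta, changed in opposite directions, from 8.93 ± 3.10 to 15.4 ± 3.19 CPM at E13.5 and from 74.1 ± 7.18 to 30.5 ± 8.13 CPM at E16.5 (edgeR adjusted p = 0.0295 and 6.34e-05). The matrix proteoglycan genes Dcn and Bgn, whose products bind TGF-beta, rose at E16.5 from 4.02 ± 3.46 to 301 ± 74.7 CPM and from 12.4 ± 5.77 to 149 ± 32.3 CPM (edgeR adjusted p = 6.21e-05 and 8.54e-09); Dcn is also one of the mesenchymal markers. The ubiquitin ligase gene Smurf1 fell by 0.58 ± 0.134 at E16.5 (edgeR adjusted p = 0.00166). At E13.5 Dcn narrowly missed the threshold (2.85 ± 0.919, edgeR adjusted p = 0.0502). Bgn (0.032 ± 0.278, edgeR adjusted p = 0.983) and Smurf1 (-0.0088 ± 0.149) did not pass there either.

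Among the 25 target genes, which include Tgfbi, 9 rose and 2 fell at E13.5 (9.58% and 5.29% of all genes), and 13 rose and 4 fell at E16.5 (22.2% and 19.4% of all genes). Cdkn1a, the cell-cycle inhibitor p21, rose from 10.2 ± 4.38 to 384 ± 111 CPM at E13.5 and from 36.1 ± 7.48 to 329 ± 103 CPM at E16.5 (edgeR adjusted p = 8.38e-09 and 4.54e-08). Tagln, a smooth muscle actin-binding protein gene, rose at E13.5, with means of 0.715 ± 0.441 and 6.52 ± 2.23 CPM (edgeR adjusted p = 1.88e-05). At E16.5 the Id1 and Id3 genes, better known as Bmp targets, rose 11.6-fold and 10.5-fold (edgeR adjusted p = 1.36e-07 and 2.73e-09). Beside Pmepa1 at E16.5, given above, the targets that fell were Vim, by 1.19 ± 0.182 at E13.5 and 1.72 ± 0.165 at E16.5 (edgeR adjusted p = 0.000107 and 9.46e-08), Ccn2, by 0.90 ± 0.204 and 1.11 ± 0.181 (edgeR adjusted p = 0.00402 and 5.62e-05), and Myc, a gene repressed by TGF-beta and activated by Wnt signalling in other settings, by 2.25 ± 0.288 at E16.5 (edgeR adjusted p = 6.15e-06). Many of these targets answer to other pathways too, and with Myc the list is not one of induced genes alone. The counts that rose or fell are therefore no measure of TGF-beta signalling.

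**Figure D4:**
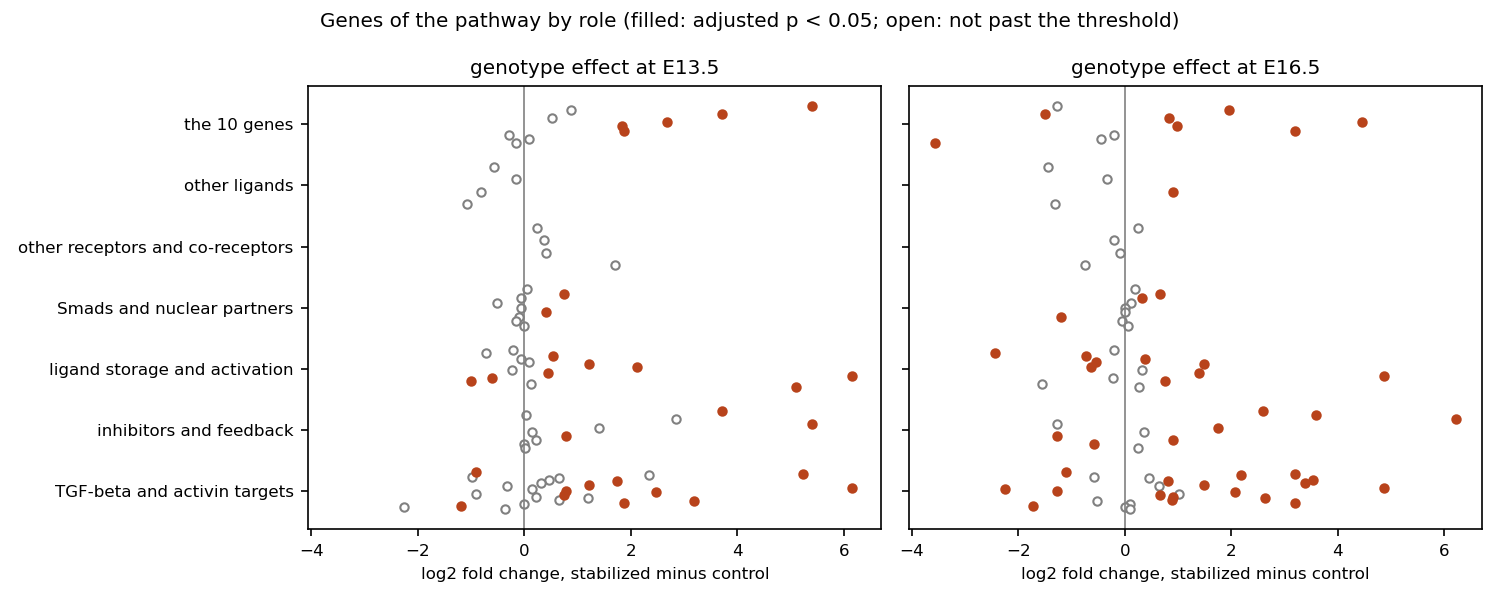
Genotype effect (log2 fold change, stabilized minus control) of every tested gene of the 10 and of the 6 lists, by role, at E13.5 (left) and E16.5 (right); each point is a gene, filled where edgeR's adjusted p was under 0.05. Genes in more than 1 list are drawn in each, and the storage list has called genes on both sides of 0 at both stages (6 and 2 at E13.5, 5 and 4 at E16.5).

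The genes most like each of the 10 in pattern were found as those with the smallest root mean square difference of log2 CPM, centred per gene, over the 18 libraries, among 12734 genes. Nearest to Tgfb2 were St8sia1, Kcnma1 and Lamb3, at distances of 0.55, 0.58 and 0.60, where the SD of Tgfb2 itself was 1.96; Lamb3, a laminin chain of the epidermal basement membrane, had group means of 23.6, 88.4, 16.3 and 210.6 CPM in the order E13.5 control, E13.5 stabilized, E16.5 control and E16.5 stabilized. Nearest to Tgfbr3 were Slitrk2, Chsy1 and Galnt16 (0.44 to 0.53, SD of Tgfbr3 1.36), and to Tgfb3 Map3k5, Sec24d and Lrig3 (0.28 to 0.35, SD of Tgfb3 0.97). Inhbb and Fst had the same 3 nearest genes, Prkg2, Nrg1 and Map3k21, at distances between 1.01 and 1.26 (SD of Inhbb 3.70, of Fst 3.74). In E13.5 controls Prkg2, Nrg1 and Map3k21 had means of 0.0081, 0.116 and 0.0 CPM, so the likeness rests in part on values near the floor. Nrg1, the ligand neuregulin, had 0.116, 1.21, 23.6 and 17.4 CPM in the 4 groups, in the order given for Lamb3. Tgfbi lay nearest to Grhl1, Klf4 and Timp3 (0.57 to 0.64, SD of Tgfbi 1.98), of which Grhl1 and Klf4 are transcription factors of epidermal differentiation. Tgfb1 lay nearest to Stim2, Slc6a6 and Tjp1, Tgfbr2 to Prelid1, Eif2s3x and Eif2s1, and Inhba to Ttc30b, Smim22 and Pde4d. Tgfbr1 varied too little between groups to be matched. All of these distances share the same libraries and are descriptions.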

How the data were processed

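Per the labels' protocols, the 18 RNA pools were made into Ovation SoLo libraries. Tools named in the submitters' processing notes were Salmon 0.99.0, Trimmomatic 0.39, FastQC 0.11.8, MultiQC 1.9 and DESeq2 3.15, with the build mm10; their settings, the strand and the annotation release were not given in the sources used here. The authors deposited estimated counts per Ensembl gene, already whole numbers. The authors also deposited a normalized signal, in which the divisor of a count varies from gene to gene of a library; it served for offsets in 1 alternative only.

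In R 4.3.3, edgeR 4.0.16 kept 17269 genes (filterByExpr, minimum count 10), computed TMM factors and fitted the 4 group means to all 18 libraries by robust quasi-likelihood (common dispersion 0.25). SE is the log2 fold change over the square root of F. Alternatives were DESeq2 1.42.0 and limma-voom (limma 3.58.1), other scalings and filters, a replicate block, the 2 compared groups alone and each library left out; leaving out the 2 libraries that stood apart was added after the data were seen. On simulated counts for the E16.5 genotype effect (16722 genes, 200 changed) the fit recovered 78.4% of 4-fold and 57.3% of 2-fold changes. P-values measure the spread between pools; no label ties a pool to its litter, and pools may share litters. Positions and exon lengths came from GENCODE M21 (mm10).

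The 10 genes and all lists were chosen with earlier results of these data known. Beside the 10, the rule for named genes took up to 3 genes per list, direction and genotype comparison with the smallest adjusted p, and the 3 most similar genes per member whose group means of log2 CPM (prior count 2) span at least 1. Of the 67 other pathway genes, 65 were in the table.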

Additional observations from a re-analysis of the deposited data

Results flagged for a closer look

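A library far from the rest of its group was found once in the 40 groups of 4 or 5 libraries checked for the 10 genes, where chance gives about 1 in 20. Fst in E13.5 control replicate 4 had 19 counts against 0 in each of the other 3 controls, so the gap to the nearest library equalled the whole range (ratio 1.0). With 0 in the other 3, any count in replicate 4 gives this ratio, which therefore adds nothing to the counts. The chance rate does not cover such ties. The same library had the highest Inhbb of its group (66 counts against 20, 4 and 1).

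For 5 genes the genotype effect differed between E13.5 and E16.5 in edgeR's interaction test. The difference, E16.5 minus E13.5 on the log2 scale, was 1.78 for Tgfb2, whose rise was larger at E16.5. It was -0.87 for Tgfb3, whose rise was larger at E13.5, and -3.41 for Tgfbr3, lower at E16.5 alone by the test. For Inhbb it was -5.21 and for Fst -6.67, with stabilized samples above controls at E13.5 and below them at E16.5. The Fst effect at E16.5 itself did not pass.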

How the results depend on the processing

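Of 980 values of the 10 genes under alternatives, 945 kept their direction and side of the threshold, 18 changed sign, 12 passed where the reported one did not and 5 no longer passed; no called effect changed sign. Sign changes of uncalled effects were as follows. Inhba between stages in stabilized samples (-0.0010) gave 0.0168 with RLE size factors and with DESeq2, 0.0935 with limma-voom, 0.0032 with the 2 groups alone, 0.1294 with the replicate block, 0.168 without the 2 libraries that stood apart, and -0.2827 to 0.1676 with each library left out. Tgfbr2 at E13.5 ranged from -0.2235 to 0.2562 with each library left out, and the Tgfbr1 interaction from -0.0326 to 0.164. With the offsets of the deposited normalized table, the Tgfb1 interaction was -0.4082 and Tgfb2 between stages in controls 0.0396; those offsets assign E16.5 stabilized libraries smaller factors for Tgfbr3 than controls. Of all genes, 2569 were called for genotype at E13.5, 1711 with the offsets, 1651 with the 2 groups alone and 1920 to 3035 with each library left out. Total counts over all genes in the other settings, and over the 10 in all, stayed within 1.5 times the reported ones; by direction, 4 of the 10 were lower at E16.5 under limma-voom and with the 2 groups alone, and 3 without the 2 libraries that stood apart, in place of 2, and 2 interactions were positive in DESeq2, and without each of the 3 libraries named for Tgfbi, in place of 1. The replicate numbers do not pair the samples by any label. Deviations of same-numbered libraries from their group means had correlations from -0.157 to 0.238. Between genotypes, the same number was the best match for replicate 2 at E13.5 (0.238) and for replicates 2 and 4 at E16.5 (0.145 and 0.235). For the other replicates it was not. With the replicate block, 2219 genes were called at E13.5 and 6779 at E16.5, and 5 and 7 of the 10 as before. Depth limits Fst and Inhbb in E13.5 controls, at 0 to 19 and 1 to 66 counts.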
